A study of Mus musculus with 6 samples.

Results

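The primary (azurophilic) granule genes measured here were Mpo, Elane, Prtn3, Ctsg, Srgn and Lyz2, together with Ms4a3, a gene of granulocyte-monocyte progenitors. They were chosen by name, with earlier results of these data known, as 7 of the 38926 genes in the deposited table. All 7 were among the 11436 genes that passed the filter on low values, a mean of at least 1 FPKM (fragments normalised to gene length and sequencing depth). The RNA came from LSK cells (Lin-, Sca-1+, Kit+), the small share of mouse bone marrow that contains blood stem cells and multipotent progenitors. Wild-type C57BL/6 mice, 8 to 12 weeks old, had received either haloperidol, a dopamine receptor blocker used against psychosis (3 libraries), or DMSO, the vehicle (3 libraries), by injection on each of 3 days in a row. Drug or solvent was also present while cells from crushed, collagenase-treated femur and tibia were sorted into lysis buffer. The labels give neither dose nor sex, and they do not say whether the replicates were separate mice, so p-values measure the spread between these libraries, which may be technical.

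Primary granules are lysosome-like stores that neutrophil precursors fill at the promyelocyte stage. Myeloperoxidase makes hypochlorous acid, the serine proteases cathepsin G, proteinase 3 and neutrophil elastase digest proteins, and lysozyme cleaves bacterial cell walls. Serglycin, the proteoglycan made from Srgn, packs the basic proteases by the negative charge of its sugar chains. In marrow the transcripts of these enzymes mark the granulocyte-monocyte branch, which arises below the LSK stage, although primed multipotent progenitors can already carry some of them. C/EBP factors, PU.1, RUNX1 and MYB are known regulators of granule genes.

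Since several of these genes changed in the same direction, the 250 bases before the start of each were read from the RefSeq promoter table (build GRCm38.p6). Those of the 3 serine protease genes, of Ms4a3 and of Lyz2 are printed 5′ to 3′. Capitals mark matches, on either strand, to TTNNGNAA (C/EBP), GAGGAA (ETS factors, which include PU.1) and TGTGGT (RUNX). Matches to AACNG (MYB) are not in capitals.
Ctsg, chr14:56102575-56102824, minus strand: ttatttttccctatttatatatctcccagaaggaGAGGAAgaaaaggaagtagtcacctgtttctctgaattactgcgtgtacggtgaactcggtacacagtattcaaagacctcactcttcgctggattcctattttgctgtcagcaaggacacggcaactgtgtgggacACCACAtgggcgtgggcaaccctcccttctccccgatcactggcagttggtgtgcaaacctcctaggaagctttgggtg
Prtn3, chr10:79879417-79879666, plus strand: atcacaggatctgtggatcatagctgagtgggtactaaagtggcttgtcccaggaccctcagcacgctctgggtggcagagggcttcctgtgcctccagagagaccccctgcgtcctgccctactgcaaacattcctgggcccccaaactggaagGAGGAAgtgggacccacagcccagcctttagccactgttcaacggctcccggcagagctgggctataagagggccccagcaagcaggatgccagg
Elane, chr10:79886062-79886311, plus strand: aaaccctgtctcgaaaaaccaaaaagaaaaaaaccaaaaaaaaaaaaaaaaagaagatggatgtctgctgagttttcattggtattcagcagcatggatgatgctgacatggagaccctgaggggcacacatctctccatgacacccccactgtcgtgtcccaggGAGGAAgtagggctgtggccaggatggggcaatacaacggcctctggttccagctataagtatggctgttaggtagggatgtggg
Ms4a3, chr19:11640852-11641101, minus strand: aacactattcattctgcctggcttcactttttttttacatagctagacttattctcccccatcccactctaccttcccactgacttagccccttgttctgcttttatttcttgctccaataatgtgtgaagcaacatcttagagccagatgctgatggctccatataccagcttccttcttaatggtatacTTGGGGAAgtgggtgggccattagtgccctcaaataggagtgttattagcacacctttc
Lyz2, chr10:117282273-117282522, minus strand: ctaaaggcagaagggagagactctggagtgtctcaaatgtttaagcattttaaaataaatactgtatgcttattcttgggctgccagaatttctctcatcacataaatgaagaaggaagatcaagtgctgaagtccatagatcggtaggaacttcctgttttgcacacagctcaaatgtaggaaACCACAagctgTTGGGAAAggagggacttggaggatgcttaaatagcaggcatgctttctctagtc
Each of the 3 protease promoters held 1 GAGGAA, which began at position -216 in Ctsg, -95 in Prtn3 and -85 in Elane, counted back from the RefSeq start. These starts can differ from the gene coordinates given below, which come from another annotation (GENCODE). The Prtn3 window lies inside the gene span given there, and the Elane and Lyz2 windows reach into theirs. Across the 32851 promoters in the table, 23.3% held this motif in the 250 bases before the start. Of the 7 genes 4 held it, Mpo with 2 matches being the other. TTNNGNAA was found for 3 of the 7 genes, against 36.8% of all promoters, with 1 match each in Ms4a3 (-59) and Lyz2 (-55), and Srgn, which has more than 1 start in the table, with matches at one of them. TGTGGT was found for Ctsg, Srgn and Lyz2, and in 14% of all promoters. AACNG, a short motif, was found for 6 of the 7 genes and in 74.2% of all promoters. These matches describe letters, not binding, and their part in the changes below was not tested.

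Depth was 8523556 to 8969024 gene-assigned reads a library, worked out from the step sizes of the FPKM values. A gene with 0 reads could still be at up to 0.334 to 0.352 RPM, a limit for counting error alone. Of the gate genes, Kit was well expressed and not called between groups (88.0, 85.3 and 69.9 FPKM with haloperidol, against 84.2, 96.3 and 82.9 FPKM with DMSO, adjusted p = 0.396). Of the 8 gate and multipotent progenitor genes 1 was higher and 4 were lower, and their summed level was 1189 to 1229 FPKM with haloperidol and 1314 to 1378 FPKM with DMSO. The 4 lower ones include Cd34 and Cd48, at -0.22 on the log2 scale each, calls lost under 2 and 7 of 17 settings. Some lineage transcripts were absent or low, with Cd3e at most 0.0809 FPKM and Ly6g at most 2.06 FPKM in any library. Others were abundant. The globin genes Hbb-bs (1636, 2165 and 1912 FPKM with haloperidol, against 1574, 1620 and 1273 FPKM with DMSO, adjusted p = 0.0589) and Hba-a1 (880, 1159 and 1064 FPKM with haloperidol, against 1208, 952 and 788 FPKM with DMSO, adjusted p = 0.715) were each above any of the 7 granule genes. The summed erythroid markers were 2719 to 3537 FPKM with haloperidol and 2294 to 2934 FPKM with DMSO. Of these 8 genes 0 were higher and 1, the erythroid factor gene Klf1, was lower (log2 fold change -0.97, adjusted p = 0.00717). Of all genes tested, 24.5% were past an adjusted p of 0.05, with 11.5% higher and 13% lower with haloperidol, and 43.1% had groups that did not overlap (21.0% with haloperidol above and 22.1% with DMSO above). The median log2 fold change of all genes was 0.00. The labels name no batch, and any batch aligned with treatment cannot be told apart from it.

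Of the 7 genes, 4 rose with haloperidol (Ms4a3, Ctsg, Prtn3 and Srgn), 1 fell (Lyz2), and Mpo and Elane did not pass the test. That is 57.1% higher and 14.3% lower, beside 11.5% and 13% of all genes. Since the 7 genes were chosen with earlier results of these data known, these shares are not evidence about the set. The groups did not overlap for the 5 genes called, beside 21.0% of all genes with haloperidol above and 22.1% with DMSO above. The changes ran from a large difference in Ms4a3 to a small one in Srgn, so the granule genes did not share one size or direction of change. Fold changes below are on the log2(FPKM + 1) scale, which understates the change of low genes.

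**Figure D1:**
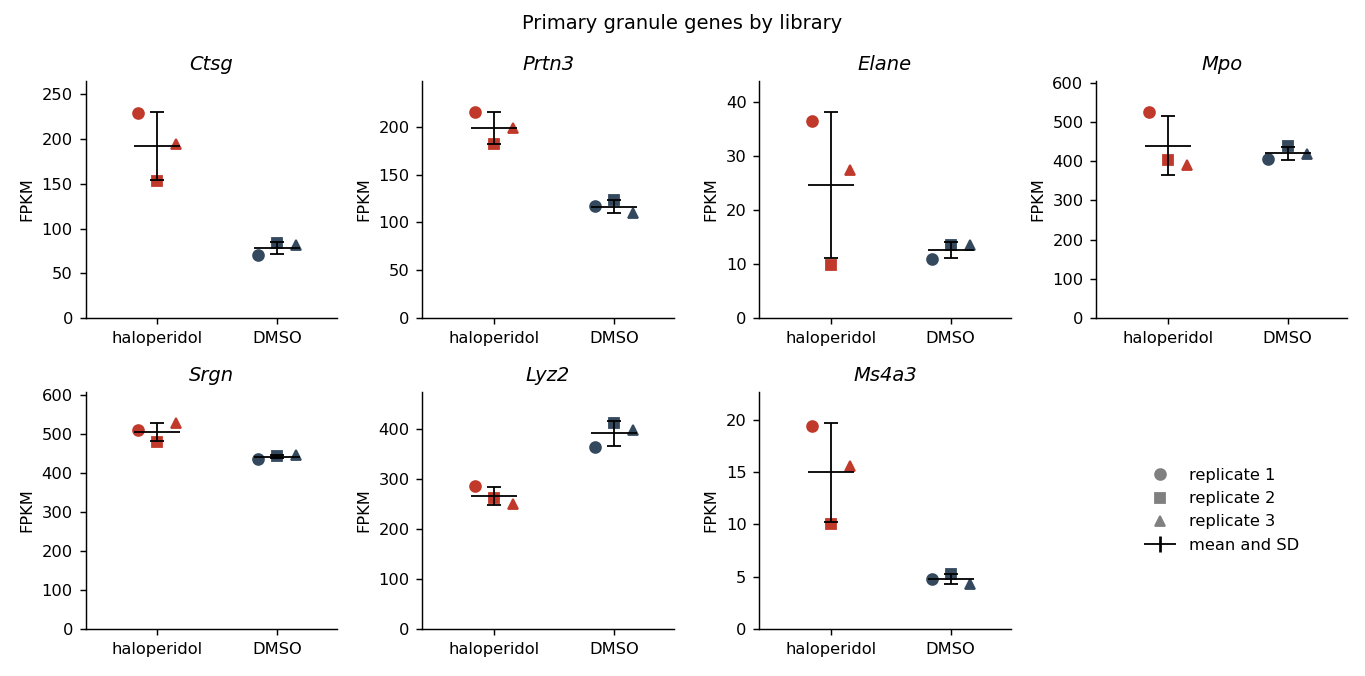
FPKM of each gene (vertical axes, starting at 0) in the 3 haloperidol libraries (red, left) and the 3 DMSO libraries (dark blue, right), with marker shape giving the replicate and black bars the mean and SD. The groups are apart for Ctsg, Prtn3, Ms4a3, Srgn and Lyz2, while 1 haloperidol library of Elane, at 9.90 FPKM, lies below all DMSO libraries.

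Ctsg encodes cathepsin G, a chymotrypsin-like serine protease (chromosome 14, 56099881 to 56102574, minus strand, GRCm38). It was at 229, 154 and 194 FPKM in haloperidol replicates 1, 2 and 3, against 70.7, 83.5 and 81.8 FPKM in DMSO replicates 1, 2 and 3. All haloperidol libraries lay above all DMSO libraries, and the lowest of them was well above the highest DMSO value. The means were 193 ± 37.9 FPKM with haloperidol and 78.7 ± 6.94 FPKM with DMSO (SD, n = 3 each), a 2.45-fold ratio of means. The log2 fold change was 1.26 with an SE of 0.13 (adjusted p = 4.6e-04), rank 51 of 11436 genes from the largest rise. The call was kept under all 17 other settings, with log2 fold changes of 1.13 to 1.42.

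Prtn3 encodes proteinase 3, an elastase-like protease (chromosome 10, 79874476 to 79883174, plus strand). It was at 215, 182 and 198 FPKM in the haloperidol libraries, against 117, 123 and 109.8 FPKM in the DMSO libraries. The groups did not overlap, and the spread within each was small beside the gap. The means of 198 ± 16.9 FPKM with haloperidol and 117 ± 6.57 FPKM with DMSO (n = 3 each) differed 1.70-fold, or by 0.76 on the log2 scale with an SE of 0.07 (adjusted p = 2.82e-04), and this call too was kept under all 17 settings. On the opposite strand the gene Plppr3 shares 159 of the 1732 exonic bases annotated for Prtn3, and the library kit keeps no strand, so reads there cannot be assigned to either gene with certainty. The level of Plppr3 was not analysed here.

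Elane, the neutrophil elastase gene, lies 3072 bases from Prtn3 on the same strand (chromosome 10, 79886247 to 79888215). It was at 36.5, 9.90 and 27.5 FPKM with haloperidol, from 289, 81 and 225 reads, against 11.0, 13.5 and 13.5 FPKM with DMSO, from 90, 108 and 112 reads. Haloperidol replicates 1 and 3 were above all DMSO libraries, and replicate 2 was below them. The means were 24.6 ± 13.5 FPKM with haloperidol and 12.7 ± 1.46 FPKM with DMSO (n = 3 each). The log2 fold change of 0.74 had an SE of 0.38 and a 95% confidence interval from -0.13 to 1.60, and the adjusted p was 0.191. Without haloperidol replicate 2 the log2 fold change was 1.26 and the adjusted p 0.00167, so that library decided the call. Elane and Prtn3 transcripts share 0 words of 50 bases, so reads of that length would not be exchanged between these neighbours.

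**Figure D2:**
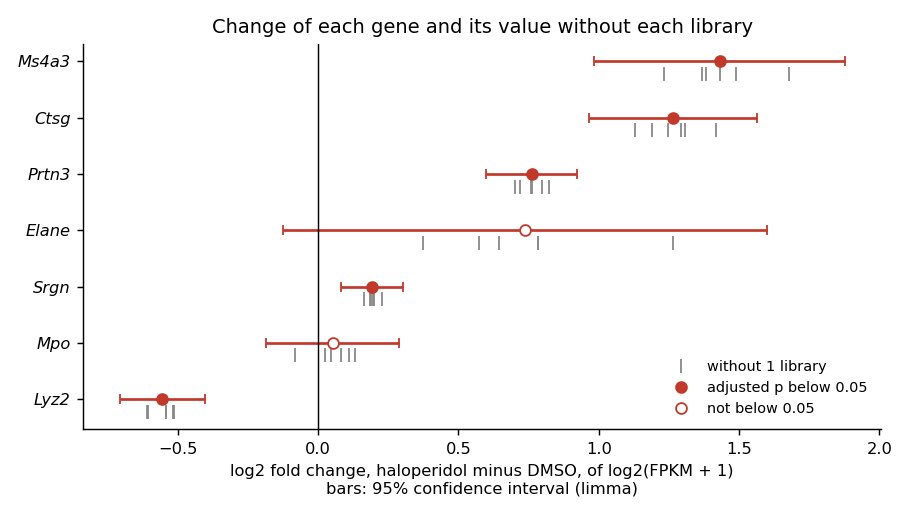
Log2 fold change of each gene (horizontal axis, haloperidol minus DMSO) with its 95% confidence interval from limma, filled where the adjusted p is below 0.05, and grey ticks for the value without each library in turn. The interval of Elane spans 0, and its ticks range from 0.37 to 1.26, while those of Ctsg, Ms4a3 and Prtn3 all stay above 0.

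Mpo, the myeloperoxidase gene (chromosome 11, 87793581 to 87804413, plus strand), was one of the most abundant transcripts in both groups, with rank 113 of 11436 genes by its mean in DMSO. It was at 526, 402 and 390.2 FPKM with haloperidol, against 405, 438 and 417 FPKM with DMSO. One haloperidol library was above the DMSO range, while the other two lay just below it. The means were 439 ± 74.9 FPKM with haloperidol and 420.3 ± 16.8 FPKM with DMSO (n = 3 each), and the log2 fold change of 0.05 had a 95% confidence interval from -0.19 to 0.29 (adjusted p = 0.755). Without haloperidol replicate 1 it turned to -0.08 (adjusted p = 0.346). An antisense transcript, Gm11505, overlaps 512 of 3424 exonic bases of Mpo and was at most 0.458 FPKM in any library.

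Srgn, the serglycin gene (chromosome 10, 62493833 to 62527451, minus strand), stood at 510, 481 and 528 FPKM with haloperidol, against 437, 445 and 446 FPKM with DMSO. The groups were apart, by a narrow margin. The means of 506 ± 23.4 FPKM with haloperidol and 443 ± 4.79 FPKM with DMSO (n = 3 each) gave a 1.14-fold ratio, or 0.19 on the log2 scale with an SE of 0.05 (adjusted p = 0.0219). The call was lost without haloperidol replicate 1 or 3 (adjusted p = 0.0712 and 0.0543), without DMSO replicate 1, 2 or 3 (0.0681, 0.0717 and 0.0511) and with no filter on low values (0.0677). Of all genes, 58.0% had a smaller absolute change.

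Lyz2, the lysozyme gene of neutrophils and macrophages (chromosome 10, 117277331 to 117282321, minus strand), went the other way. It was at 286, 260.5 and 250.2 FPKM with haloperidol, against 363, 412 and 397 FPKM with DMSO, so all DMSO libraries were above all haloperidol libraries. The means were 265 ± 18.4 FPKM with haloperidol and 391 ± 25.2 FPKM with DMSO (n = 3 each), a ratio of 0.680. The log2 fold change was -0.56 with an SE of 0.07 (adjusted p = 8.86e-04). The call was kept under all 17 settings, between -0.61 and -0.51. Its paralog Lyz1, 5475 bases away, shares 15.4% of the 50-base words of Lyz2 transcripts, but was at most 0.0887 FPKM in any library.

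Ms4a3 encodes a membrane protein of the tetraspan type whose expression marks granulocyte-monocyte progenitors (chromosome 19, 11629496 to 11640851, minus strand). It was at 19.4, 10.0 and 15.5 FPKM with haloperidol, from 169, 90 and 140 reads, against 4.76, 5.23 and 4.27 FPKM with DMSO, from 43, 46 and 39 reads. The lowest haloperidol library was above the highest DMSO library. The means of 15.0 ± 4.73 FPKM with haloperidol and 4.76 ± 0.480 FPKM with DMSO (n = 3 each) differed 3.15-fold, or by 1.43 on the log2 scale with an SE of 0.20 (adjusted p = 0.00162). The value ranged from 1.23 to 1.68 over the other settings and was called under all of them. In bulk RNA a larger share of cells that carry a transcript and more of it per cell cannot be told apart, here and for the other genes.

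Within the haloperidol group the same library was lowest for Ms4a3, Ctsg, Prtn3, Elane and Srgn, namely replicate 2. For Mpo and Lyz2 replicate 3 was lowest. The spread was widest for Elane and Ms4a3, whose haloperidol SDs were 13.5 FPKM of a mean of 24.6 and 4.73 FPKM of a mean of 15.0.

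FPKM values are per gene length, so levels can be ordered between genes. With haloperidol the order of mean levels was Srgn, Mpo, Lyz2, Prtn3, Ctsg, Elane and Ms4a3. The library ranges of Srgn and Mpo, of Prtn3 and Ctsg, and of Elane and Ms4a3 overlapped in that group, so these neighbours do not differ beyond their spread. With DMSO the order of means was the same, with overlapping ranges for Srgn and Mpo and for Mpo and Lyz2, while Prtn3, Ctsg, Elane and Ms4a3 were each apart from the next. The summed level of the 3 serine proteases was 481, 345 and 420.2 FPKM in the haloperidol libraries, against 199, 219.9 and 205 FPKM in the DMSO libraries. Mpo was 1.09, 1.17 and 0.929 times that sum with haloperidol, against 2.04, 1.99 and 2.04 times with DMSO. The summed level of all 7 genes overlapped between groups, at 1822, 1499 and 1604 FPKM with haloperidol, against 1409, 1520 and 1470 FPKM with DMSO.

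Ratios within a library do not depend on how libraries are scaled, and 8 were compared, each other gene with Mpo, Ctsg with Prtn3, and Elane with Prtn3. The groups did not overlap for 5 of them. Ctsg was 0.436, 0.382 and 0.498 times Mpo with haloperidol, against 0.175, 0.191 and 0.196 times with DMSO, a difference of 1.22 in mean log2 ratio. Prtn3 was 0.410, 0.451 and 0.508 times Mpo with haloperidol, against 0.289, 0.280 and 0.263 times with DMSO (log2 difference 0.71). The corresponding log2 differences were 1.56 for Ms4a3 over Mpo and -0.61 for Lyz2 over Mpo. Ctsg was 1.07, 0.846 and 0.980 times Prtn3 with haloperidol, against 0.605, 0.680 and 0.745 times with DMSO, so Ctsg and Prtn3 were closer to equal in the haloperidol libraries. For these 5 ratios the two-sided exact permutation test gave p = 0.1, the smallest value 3 against 3 libraries allow, and an adjusted p of 0.16 over the 8, which the design cannot bring below 0.05. Elane over Mpo and Srgn over Mpo overlapped between groups (log2 differences 0.72 and 0.14, exact p = 0.4 each). Elane over Prtn3 was 0.169, 0.0545 and 0.138 with haloperidol, against 0.0938, 0.110 and 0.123 with DMSO, and its mean log2 ratio differed by 0.00 (exact p = 1).

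**Figure D3:**
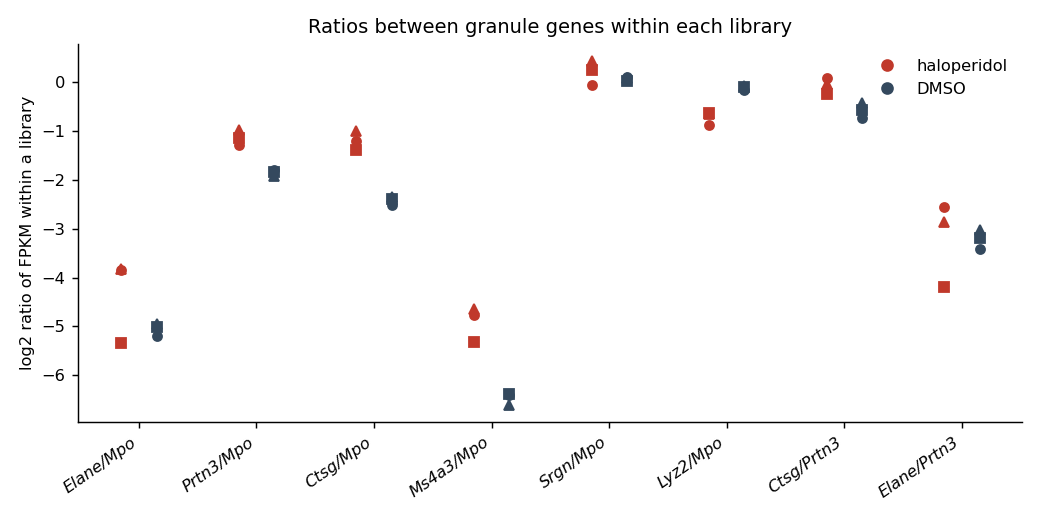
Log2 ratio of FPKM between pairs of granule genes within each library (vertical axis), for haloperidol (red, left of each pair) and DMSO (dark blue, right), with circles, squares and triangles for replicates 1, 2 and 3. Ctsg, Prtn3 and Ms4a3 over Mpo are higher in every haloperidol library than in any DMSO library, Lyz2 over Mpo is lower, and Elane over Prtn3 overlaps.

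Other genes of the granule pathway were read from lists of textbook members, also chosen with earlier results of these data known. Each list is set beside the 11.5% of all genes that were higher and the 13% that were lower. Of 14 tested genes of other primary granule or lysosomal proteins, 4 rose (28.6%) and 2 fell (14.3%), with a median log2 fold change of 0.08, beside 0.00 for all genes. Cd68, a lysosomal membrane glycoprotein, was at 46.0, 40.6 and 48.2 FPKM with haloperidol, against 17.2, 16.0 and 15.3 FPKM with DMSO (log2 fold change 1.42, SE 0.08, adjusted p = 3.21e-05). Prss57, which encodes neutrophil serine protease 4, was at 19.3, 20.1 and 18.4 FPKM with haloperidol, against 11.4, 14.9 and 14.0 FPKM with DMSO (log2 fold change 0.50, SE 0.10, adjusted p = 0.00731). It lies 83514 bases from Prtn3. Fstl3 on the opposite strand covers 1157 of the 2843 exonic bases of Prss57 and was at most 0.951 FPKM, and without strand the reads there cannot be told apart. The lysosomal hydrolase genes Gusb and Man2b1 rose by 0.37 and 0.57 on the log2 scale, while Hexa and Ctsd fell by 0.21 and 0.14, small changes whose calls were lost under 6 and 9 of the 17 other settings. Cd63, a granule membrane tetraspanin and the most abundant of the list, was at 280, 272 and 319 FPKM with haloperidol, against 280, 252 and 277 FPKM with DMSO (adjusted p = 0.32). Bpi, a bactericidal protein of primary granules, was at most 0.119 FPKM.

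Genes that activate or inhibit the proteases moved both ways, with 2 of 8 higher and 2 lower (25% each). Ctsc encodes cathepsin C, which removes the propeptide of the granule serine proteases, and was at 26.1, 27.2 and 27.2 FPKM with haloperidol, against 26.6, 26.7 and 29.4 FPKM with DMSO (log2 fold change -0.04, adjusted p = 0.698). Cst7, a cystatin that restrains cathepsin C, rose by 0.41 on the log2 scale (SE 0.06, adjusted p = 0.00227). Serpinb1a, whose product inhibits elastase, cathepsin G and proteinase 3, fell to 184 ± 5.82 FPKM with haloperidol, against 219 ± 15.95 FPKM with DMSO (n = 3 each, log2 fold change -0.25, adjusted p = 0.0178), and this call was lost under 4 of the 17 settings. Serpinb9 fell by 0.33 and Serpinb6a rose by 0.29, calls lost under 7 of 17 and 10 of 16 settings. Cst3, the cystatin C gene and the most abundant of the list, was at 282, 275 and 290 FPKM with haloperidol, against 288, 285 and 283 FPKM with DMSO (adjusted p = 0.824).

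Of 15 tested genes of granule sorting and release, 2 rose and 2 fell (13.3% each), shares near those of all genes. Ap3s1, a subunit of the AP-3 adaptor that sorts cargo to lysosome-like organelles, was at 53.9, 49.1 and 52.2 FPKM with haloperidol, against 26.5, 32.5 and 28.3 FPKM with DMSO (log2 fold change 0.81, SE 0.08, adjusted p = 3.39e-04). Vps45 and Jagn1, mutated in inherited neutropenias, fell by 0.44 and 0.29 on the log2 scale. G6pc3, a glucose-6-phosphatase also linked to neutropenia, rose by 0.31, a call lost under 5 of 17 settings. Stxbp2, a syntaxin-binding protein of granule release, was at 52.0, 50.5 and 53.2 FPKM with haloperidol, against 44.4, 47.8 and 52.8 FPKM with DMSO (adjusted p = 0.295). Of 15 tested genes for the glycosaminoglycan chains that serglycin carries, 1 rose (6.67%) and 3 fell (20%). Ndst2, a sulfotransferase for heparin-type chains, rose by 0.54 (adjusted p = 0.00227), whereas the chondroitin sulfotransferase genes Chst12 and Chst15 fell by 0.41 and 0.58 (adjusted p = 0.00194 and 0.00486). Chsy1, a chondroitin synthase, fell by 0.36, a call lost under 7 of 17 settings.

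Of 10 tested transcription factors known to act on granule genes, 1 rose (10%) and 4 fell (40%). Cebpd, a C/EBP family member, was at 33.0, 28.2 and 34.3 FPKM with haloperidol, against 15.7, 16.4 and 12.6 FPKM with DMSO (log2 fold change 1.05, SE 0.11, adjusted p = 4.35e-04). Myb fell to 80.7 ± 7.37 FPKM with haloperidol, against 138 ± 8.59 FPKM with DMSO (n = 3 each, log2 fold change -0.76, adjusted p = 3.57e-04). Spi1, which encodes PU.1, and Irf8, a factor of monocyte commitment, fell by 0.49 and 0.84 on the log2 scale. Gfi1, a repressor needed for neutrophil formation, fell by 0.31 (adjusted p = 0.0447), and that call was lost under 9 of 17 settings. Cebpb, the most abundant of these factors, was at 1162, 1075 and 1361 FPKM with haloperidol, against 1217, 1143 and 1222 FPKM with DMSO (adjusted p = 0.998). Cebpa was at 3.05, 1.92 and 2.39 FPKM with haloperidol, against 2.13, 2.80 and 2.11 FPKM with DMSO (adjusted p = 0.873). Runx1 was at 19.2, 16.7 and 14.1 FPKM with haloperidol, against 19.9, 19.9 and 19.7 FPKM with DMSO, and was not called (adjusted p = 0.102). Cebpe, the C/EBP factor of later granule stages, was at most 0.181 FPKM in any library.

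**Figure D4:**
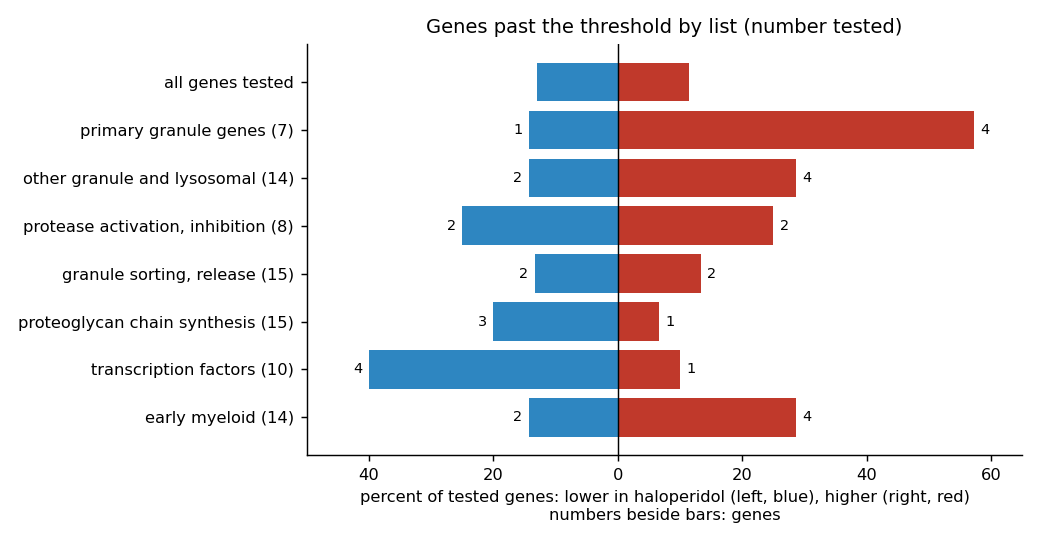
Percent of tested genes past an adjusted p of 0.05 (horizontal axis) that were lower (blue, left) or higher (red, right) with haloperidol, for all 11436 genes tested (top) and for each list, with the number of genes beside each bar and the number tested in brackets. The 7 primary granule genes have 4 higher and 1 lower, and the transcription factors have 1 higher and 4 lower.

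Of 14 tested genes of granulocyte-monocyte progenitors, 4 rose (28.6%) and 2 fell (14.3%). Their summed level was nevertheless lower with haloperidol, by a narrow margin, at 803 to 903 FPKM, against 905 to 935 FPKM with DMSO. Csf2rb, the shared beta chain of the GM-CSF, IL-3 and IL-5 receptors, was at 17.2, 14.1 and 21.0 FPKM with haloperidol, against 7.53, 8.85 and 7.10 FPKM with DMSO (log2 fold change 1.05, SE 0.14, adjusted p = 0.0012). Csf2ra, its GM-CSF partner, rose by 0.31. Fcgr3, an Fc receptor used to define granulocyte-monocyte progenitors, was at 2.81, 2.66 and 3.43 FPKM with haloperidol, against 1.55, 1.92 and 1.28 FPKM with DMSO (adjusted p = 0.0124). Csf3r, the G-CSF receptor gene, rose by 0.16, a call lost under 7 of 17 settings. Clec12a, a lectin receptor of myeloid cells, fell to 4.70 ± 0.310 FPKM with haloperidol, against 11.0 ± 0.900 FPKM with DMSO (n = 3 each, log2 fold change -1.08). Plac8, the most abundant of the list, fell by 0.32, to 287 ± 13.96 FPKM with haloperidol, against 359 ± 12.33 FPKM with DMSO.

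The summed level of later neutrophil markers overlapped between groups. It ran from 201 to 343 FPKM with haloperidol and from 193 to 312 FPKM with DMSO. Of 13 tested 1 was higher (7.69%) and 0 lower, beside 11.5% and 13% of all genes. The gene called was Chi3l3, a chitinase-like protein, at 7.91, 12.2 and 17.0 FPKM with haloperidol, against 3.09, 6.63 and 4.82 FPKM with DMSO, whose call was lost under 4 of 17 settings. Of the calgranulin genes, S100a8 was at 68.2, 107 and 111 FPKM with haloperidol, against 57.2, 96.9 and 62.8 FPKM with DMSO (adjusted p = 0.225), and S100a9 was not called either (adjusted p = 0.21). Haloperidol replicate 1, which had the highest Ctsg, Elane and Ms4a3, had the lowest S100a8 of its group. Summed markers of monocytes, macrophages and dendritic cells, cells that share Lyz2, were at 103 to 127 FPKM with haloperidol and 109.7 to 120.4 FPKM with DMSO, with the macrophage marker Emr1 at most 0.43 FPKM. Most of that sum was Cd14, the lipopolysaccharide co-receptor gene (adjusted p = 0.357). Of the 4 tested markers 1 was higher and 1 was lower (25% each). H2-Aa, an MHC class II gene of antigen-presenting cells, was at 12.1, 12.4 and 9.11 FPKM with haloperidol, against 26.2, 22.6 and 26.6 FPKM with DMSO (log2 fold change -1.10, adjusted p = 4.8e-04). F13a1, the coagulation factor XIII A chain gene, was at 9.44, 4.70 and 6.89 FPKM with haloperidol, against 1.49, 2.73 and 1.98 FPKM with DMSO (log2 fold change 1.36, adjusted p = 0.00357). Cx3cr1, a monocyte chemokine receptor gene below the filter, was at 0.280, 0.240 and 0.630 FPKM with haloperidol, against 1.20, 1.42 and 1.19 FPKM with DMSO. Itgax and Ccr2, also below the filter, went the other way. Itgax was at 0.948, 1.17 and 1.11 FPKM with haloperidol, against 0.527, 0.655 and 0.548 FPKM with DMSO. Ccr2 was at 1.38, 0.862 and 0.878 FPKM with haloperidol, against 0.351, 0.774 and 0.676 FPKM with DMSO. The other markers of the list below the filter overlapped between groups.

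Markers of other cells with granules did move with the groups in part. Among 4 tested markers of mast cells and basophils, 3 were higher (75%) and 1 was lower (25%), beside 11.5% and 13% of all genes. The summed level of the list of 147 to 171 FPKM with haloperidol overlapped that of 144 to 150.1 FPKM with DMSO. Most of the DMSO sum was Gata2, which fell, so this overlap does not describe the other markers. Mcpt8, a basophil protease gene that lies next to Ctsg on chromosome 14, was at 19.7, 15.9 and 20.4 FPKM with haloperidol, against 5.51, 9.29 and 7.91 FPKM with DMSO (log2 fold change 1.22, SE 0.16, adjusted p = 0.00146), and Cpa3, the mast cell carboxypeptidase gene, rose by 0.79. Hdc, the histidine decarboxylase gene, was the third one higher (log2 fold change 0.50, adjusted p = 0.0149), a call lost under 3 of 16 settings. The member called lower was Gata2, the most abundant of the list and also a progenitor factor, at 70.3, 69.8 and 79.5 FPKM with haloperidol, against 105, 94.2 and 98.9 FPKM with DMSO (log2 fold change -0.44, adjusted p = 0.00255). The mast cell protease genes Tpsb2 and Cma1 were too low to be tested, at most 1.61 FPKM in any library, and overlapped between groups. The receptor genes Fcer1a and Ms4a2 were also below the filter, with at most 14 reads in a library. Fcer1a was at 1.47, 1.10 and 0.985 FPKM with haloperidol, against 0.109, 0.224 and 0.432 FPKM with DMSO. Ms4a2 was at 0.879, 1.19 and 0.849 FPKM with haloperidol, against 0.763, 0.174 and 0.419 FPKM with DMSO. Eosinophil markers varied widely between libraries, with Prg2, the major basic protein gene, at 68.1, 27.1 and 12.99 FPKM with haloperidol, against 44.4, 49.1 and 74.4 FPKM with DMSO. Megakaryocyte markers summed to 101 to 114 FPKM with haloperidol and 76.9 to 84.7 FPKM with DMSO, and 1 of 5 tested was higher (20%). That gene was Itga2b, an integrin chain also found on progenitors, at 46.9, 40.1 and 47.4 FPKM with haloperidol, against 19.1, 19.7 and 17.5 FPKM with DMSO (log2 fold change 1.21, adjusted p = 5.4e-05). Without it the sums were 61.9, 61.0 and 66.9 FPKM with haloperidol, against 63.0, 65.1 and 59.5 FPKM with DMSO, and overlapped, and Pf4 was not called (adjusted p = 0.639). Of 6 tested eosinophil markers 0 were higher and 1, Ear1, was lower (16.7%), a call lost under 7 of 16 settings. Of 3 B cell markers 0 were higher and 2 lower (66.7%), among them Cd79a (0.638, 0.618 and 1.002 FPKM with haloperidol, against 2.85, 2.05 and 1.75 FPKM with DMSO, adjusted p = 0.007). Of 2 T and NK cell markers and 3 stromal and endothelial markers, 0 were called. The part of any of these cells in the changes of the granule genes was not tested.

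Among paralogs and locus neighbours, Cfd, 2637 bases beyond Elane, was at most 0.487 FPKM, and Med16 on its far side was at 31.6, 33.1 and 29.6 FPKM with haloperidol, against 26.4, 30.0 and 26.9 FPKM with DMSO (adjusted p = 0.0987). The Mpo neighbour Lpo, lactoperoxidase, was at most 0.0371 FPKM. On the other side of Ctsg from Mcpt8, the granzyme gene Gzme was at most 0.122 FPKM, while Gzmc fell by 0.73 on the log2 scale, from 8, 9 and 13 reads with haloperidol, against 21, 17 and 29 reads with DMSO, a call lost under 2 of 16 settings (highest adjusted p 0.0537). Of the Ms4a genes, Ms4a6c was at 28.6, 21.0 and 19.3 FPKM with haloperidol, against 15.1, 17.7 and 16.8 FPKM with DMSO (log2 fold change 0.43, adjusted p = 0.0429), a call lost under 9 of 17 settings.

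The genes whose profile over the 6 libraries was most like each called granule gene were found by the root mean square difference of centred log2(FPKM + 1). Since the groups differ, any gene with a like-sized change lies close by this measure. For Ctsg they were the chemokine gene Ccl9 (difference 0.10), Tlr12 (0.11) and the small GTPase gene Rab44 (0.13). For Ms4a3 they were F13a1 (0.15), then Tlr12 and Ccl9 (0.16 each). The distance between Ctsg and Ms4a3 themselves was 0.16. Nearest to Prtn3 were the cold-inducible gene Rbm3 (0.06), the zinc exporter gene Slc30a1 (0.07) and Enkur (0.07), nearest to Srgn were Dnajc19, Rabac1 and Dek (0.02 each), and nearest to Lyz2 were Epb4.1l4b (0.03), the isovaleryl-CoA dehydrogenase gene Ivd (0.04) and the receptor kinase gene Tie1 (0.04).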

How the data were processed

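RNA was measured in 6 libraries of sorted LSK cells, 3 per group, grouped by sample title. Per the labels' protocols, cDNA was made with a SMART-Seq v4 low-input kit and libraries with a Nextera XT kit. Named without a role in the submitters' processing notes are build mm10, TopHat2 (2.1.1), HTSeq (0.6.1), bcl2fastq (2.19.1.403) and, for DESeq2, version 1.18.1. The annotation release and counting mode were not given in those sources. Values in the 1 table deposited by the authors are FPKM, with 0 columns of other samples. Dividing values by their step size gave whole numbers of reads (tolerance 0.001) in 100.0% of the 20633 detected genes. Library scales equalled median-of-ratios size factors of these reads. Chi-square per degree of freedom was 2.92 to 4.75 within groups and 12.95 to 18.32 between groups, so no pair of libraries agreed within sampling noise.

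Genes with a mean of at least 1 FPKM entered limma 3.58.1 (R 4.3.3) as log2(FPKM + 1) (trended prior variance, two-sided, no covariate), with Benjamini-Hochberg adjustment over all 11436 genes and a threshold of 0.05. The procedure was also run on simulated reads with the same spread setting for every gene. The measured genes need not share that setting, so the run does not measure error rates here. Coordinates are from GENCODE M21 (GRCm38), which may differ from the authors' annotation. The 17 other settings changed the pseudocount, the filter, the scaling, the prior variance, sample weights, the replicate block, the libraries or the test. The granule genes and lists were chosen with earlier results of these data known. Named besides the 7 genes are up to 4 members of each pathway list with the smallest p, the most abundant member, abundant markers, measured locus and family genes, and the 3 nearest profiles. Hexa, Ctsd, Ctsc, Bpi, Gfi1, Cebpa, Runx1, Cebpe, Csf3r, Fcgr3, Chi3l3, Kit, Cx3cr1, Itgax, Ccr2, Hdc, Fcer1a, Ms4a2, Klf1, Ear1 and genes given only as a maximum were added after their values were seen. A further 10 marker or locus genes that the rule picks, 0 of them called, are not described.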

Additional observations from a re-analysis of the deposited data

How the results depend on the processing

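Ms4a3, Ctsg, Prtn3 and Lyz2 kept direction and call under all 17 other settings. For Srgn the log2 fold change lay between 0.16 and 0.23 without each library in turn, with the call lost in 5 of those 6 cases, and it was 0.19 with the call lost when no filter on low values was used (adjusted p = 0.0677). Elane ranged from 0.37 to 1.26 without each library and passed only without haloperidol replicate 2 (adjusted p = 0.00167), and Mpo ranged from -0.0843 to 0.13. The number of the 7 genes called was 4 to 6 over these settings, against 5. Of all genes tested, 2807 were called, 1320 of them higher, and 1821 to 2148 without each library in turn (815 to 957 higher), with the lowest of both without DMSO replicate 2 and 869 higher without haloperidol replicate 1; with no filter 848 were higher. In the pathway lists 15 genes were lower, but 9 with no filter and 9 to 13 without each library, 9 without haloperidol replicate 2. The log2 difference of Elane over Prtn3 turned to -0.0245 with a pseudocount of 1 and ranged from -0.32 to 0.50 without each library, below 0 without haloperidol replicate 1 or 3 or DMSO replicate 1. Ctsc ranged from -0.0609 to 0.0107, above 0 without DMSO replicate 3. Uncalled values near 0 also changed sign: Cebpb to -0.0207, -0.0445 and -0.0154 with a common sum, quantile normalization and sample weights, Cst3 to 0.0105 with upper quartile scaling and Hba-a1 to -0.0013 with quantile normalization, with ranges without each library of -0.0943 to 0.0760, -0.0348 to 0.0040 and -0.0616 to 0.2463. The cause of these moves was not tested. Of 55 called genes named beside the granule genes, 37 were called under all settings and 0 changed sign.

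Samples with the same replicate number did not deviate together (correlations 0.009, 0.055 and 0.020), so the numbers were not taken as pairs; with the replicate block 2552 genes were called, 1208 higher and 1344 lower, and the same 5 granule genes were among them. The deposited values are FPKM, and the planned edgeR and DESeq2 fits were not run, although the recovered reads would have allowed them. The only fit made on recovered reads was voom, chosen after seeing the data. It called 3323 genes and the same 5 granule genes. Depth limits Elane and Ms4a3 most, with at most 289 and 169 reads in a library.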
